A study of Mus musculus with 16 samples.

Results

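The transcripts of 7 genes of the B cell lineage, Cd79a, Cd79b, Pax5, Ebf1, Cr2, Fcmr and Blk, were followed in dendritic cells (DC) sorted from mouse spleen. They were chosen by name from a table of 24116 genes, with earlier results of these data known. Shares of all genes set beside counts of the 7 are therefore descriptions only. All 7 had a row, and all 7 were among the 13790 genes that passed a filter on low counts. The table held 16 libraries, 2 for each combination of subset and genotype. The CKO groups were Dec205 CKO, pDC CKO, Esamlo CKO and Esamhi CKO, and the WT groups were the same subsets from WT. The receptor DEC-205 marks cross-presenting classical DC (cDC1), ESAM divides the other classical DC (cDC2) into low and high fractions, and pDC are plasmacytoid DC, the main producers of type I interferon. The series' design text describes the cells as lacking Etv6, an ETS family repressor, so CKO was read as the Etv6-deficient genotype. Strain, age, treatment, the driver of the deletion and the gates of the sorts are not stated in the labels. Nor do they state that both libraries within any one group are from different mice. The p-values therefore reflect library-to-library spread, and that spread could be purely technical.

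Library totals ran from 14434287 to 20709265 counts. Levels are given as CPM, counts scaled to the TMM-adjusted library size, and 3 counts, the smallest number taken as detected, corresponded to 0.1435 to 0.2277 CPM. The labelled subsets were checked against 10 markers each. The summed level of the cDC1 markers was 6550 to 7880 CPM in Dec205 CKO and 6970 to 7140 CPM in Dec205 WT, and that of the pDC markers was 15000 to 16400 CPM in pDC CKO and 14000 to 14200 CPM in pDC WT. The sums do not show single markers. Of the 10 cDC1 markers, 9 were not called between CKO and WT in Dec205, and 1, Cd8a, fell. Cd8a had 69.21 and 70.67 CPM in Dec205 CKO and 781.4 and 698.9 CPM in Dec205 WT. The cDC2 markers summed to between 2420 and 3080 CPM in the Esamlo and Esamhi groups, but also reached 2310 to 2490 CPM in the pDC groups, so that list did not set the ESAM subsets apart from pDC. Etv6 itself fell in Dec205, with 205.2 and 219.4 CPM in CKO and 337.2 and 375.2 CPM in WT (log2 fold change −0.75, SE 0.10, adjusted p = 0.000996, edgeR's quasi-likelihood test). It had 362.9 and 322.2 CPM in pDC CKO and 345.5 and 352.1 CPM in pDC WT, 370.1 and 362.3 CPM in Esamlo CKO and 426.1 and 511.8 CPM in Esamlo WT, and 389.8 and 433.9 CPM in Esamhi CKO and 491.6 and 451.0 CPM in Esamhi WT. Gene totals still count reads from any exons that a deletion leaves, and the deleted part is not stated in the labels. The female-specific transcript Xist was at 113.9 to 355.2 CPM in all CKO libraries and at 0 to 1.442 CPM in all WT libraries, so sex and genotype cannot be told apart in any comparison of CKO with WT.

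The 7 genes cover successive layers of the B cell programme. Ebf1 and Pax5 encode the transcription factors that specify the B lineage and then hold it in place. Cd79a and Cd79b encode the signalling chains that pair with membrane immunoglobulin to form the B cell receptor, and Blk encodes a kinase of the Src family that acts just downstream of it. Cr2 encodes complement receptors that lower the threshold of that signal, and Fcmr encodes the receptor for the Fc part of IgM. Mature B cells are the most abundant lymphocytes of the spleen, whereas classical DC are defined by other receptors. pDC share parts of the B cell programme, among them Spib and some transcripts of the receptor pathway. In bulk RNA of a sort, more cells of another type and more RNA per sorted cell cannot be told apart.

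All 7 genes were placed on GRCm38.p6 by RefSeq. Cd79a lies at chr7:24897497-24901858 on the plus strand, Cd79b at chr11:106311341-106314562 on the minus strand, and Blk at chr14:63372837-63417187 on the minus strand. Fcmr (chr1:130865777-130880790, plus strand) and Cr2 (chr1:195136811-195176880, minus strand) share a chromosome. Ebf1 (chr11:44618100-45008096, plus strand) and Pax5 (chr4:44524748-44710694, minus strand) are the largest, and both overlap annotated antisense genes (Gm12158 in Ebf1, Gm12462 in Pax5). SMART-seq v4 libraries carry no strand information, so counts of Ebf1 and Pax5 could include reads of these antisense genes.

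Because Etv6 belongs to the ETS family, whose members bind a GGAA core, the promoter windows of the genes were searched for the ETS letters GGAAGT, on either strand. RefSeq windows of 300 bases (GRCm38.p6; 250 before to 50 after the annotated start) were at hand for 5 of the 7 genes, with more than 1 start for Ebf1. Windows of Cd79a, Ebf1 and Cr2 held GGAAGT. They are shown with the core, or its reverse complement, in capitals, on the strand of the gene.
Cd79a, chr7:24897431-24897460: cacggctgaacaGGAAGTgaggcggagttt
Ebf1, chr11:44620160-44620189: aacccaaacaaaACTTCCacacctctgagt
Cr2, chr1:195176832-195176861: aaccaaaagcagACTTCCcggggaccgccc
The core stood at bases −54 to −49 before the RefSeq start of Cd79a, within a 5′ UTR annotated by GENCODE, at −56 to −51 before the downstream of the annotated Ebf1 starts, and at −130 to −125 before the start used for the Cr2 window. That Cr2 start lies inside the outermost RefSeq bounds of the gene given above, so the Cr2 stretch shown falls within those bounds. The same letters occurred in 23.8% of 32851 promoter windows of that length. Farther upstream in the Cd79a window is an E-box of the sequence CAGGTG, a site type bound by E proteins of early B cells, shown in capitals.
Cd79a, chr7:24897247-24897380: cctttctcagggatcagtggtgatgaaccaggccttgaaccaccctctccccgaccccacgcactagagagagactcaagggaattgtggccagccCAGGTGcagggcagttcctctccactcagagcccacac
CAGGTG was also found in the windows of Cr2 and Fcmr and occurred in 20.2% of all windows. The core letters of EBF sites, CCCNNGGG (13.7% of windows), and the octamer ATGCAAAT (1.74%) were in none of the windows of these genes. Only exact letters were searched, so sites that depart from them were missed. The Cd79a stretch above holds ctcaaggg, which is close to the EBF letters but was not counted. A match of letters is a description of the window and not of binding.

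Cd79a, which encodes the alpha chain of the B cell receptor complex, had the highest mean level per kilobase of exon among the 7 in Dec205 and Esamlo. In Dec205 it had 194.1 and 69.83 CPM in CKO, against 33.24 and 37.13 CPM in WT. In Esamlo it had 241.4 and 88.55 CPM in CKO, against 51.42 and 83.91 CPM in WT. Both CKO libraries lay above both WT libraries in each of these subsets, but the CKO libraries lay far apart from each other, while those of Dec205 WT were close. The pDC libraries had 63.16 and 33.80 CPM in CKO and 34.88 and 28.66 CPM in WT, and the Esamhi libraries had 66.67 and 35.27 CPM in CKO and 28.92 and 32.74 CPM in WT. In pDC the ranges overlapped, and in Esamhi the lower CKO library was only just above WT. The log2 fold change of CKO over WT was 1.91 (SE 0.54) in Dec205 and 1.29 (SE 0.52) in Esamlo, with adjusted p-values of 0.0531 and 0.535 by edgeR's quasi-likelihood test, so neither passed the threshold of 0.05.

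Cd79b, the beta chain that pairs with Cd79a, had 87.10 and 40.46 CPM in Dec205 CKO, against 30.81 and 14.81 CPM in Dec205 WT. The groups did not overlap, but replicate 1 was 2.15 times replicate 2 in CKO and 2.08 times replicate 2 in WT (log2 fold change 1.49, SE 0.43, adjusted p = 0.058, edgeR's quasi-likelihood test). In pDC it had 71.72 and 67.13 CPM in CKO and 65.81 and 53.05 CPM in WT. Its values were 132.4 and 58.00 CPM in Esamlo CKO, against 53.75 and 58.42 CPM in Esamlo WT. In Esamlo the lower CKO library lay within the WT range, so 1 library carried the higher mean, and in pDC the CKO libraries lay just above WT. In Esamhi the values were 66.20 and 46.87 CPM in CKO and 31.96 and 34.09 CPM in WT, without overlap.

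Blk was the only one of the 7 to pass the test within a single subset. It had 45.63 and 28.98 CPM in Dec205 CKO, against 13.43 and 5.072 CPM in Dec205 WT. Both CKO libraries were above both WT libraries, and the mean rose 4.05-fold (37.3 ± 11.8 CPM in CKO, 9.25 ± 5.91 CPM in WT, SD, n = 2 each; log2 fold change 2.02, SE 0.50, adjusted p = 0.0317, edgeR's quasi-likelihood test). Of all tested genes, 3.44% were higher in Dec205 CKO by the same test, and 1 of the 7 genes was. The call ended without WT replicate 2 (log2 fold change 1.47, adjusted p = 0.166), without CKO replicate 1 (1.66, adjusted p = 0.129) and when only the Dec205 libraries were fitted (2.04, adjusted p = 0.174). Without WT replicate 1, the log2 fold change was 2.89 (adjusted p = 0.0114), so the size of the change depended on which WT library was kept.

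The pattern of Blk varied among the other subsets. Esamhi had 15.67 and 12.45 CPM in CKO, against 22.37 and 26.05 CPM in WT, so that both CKO libraries lay below both WT libraries. This was the reverse of Dec205, but the fall did not pass the test (log2 fold change −0.79, SE 0.49, adjusted p = 0.923). Esamlo had 38.06 and 17.73 CPM in CKO and 8.58 and 16.93 CPM in WT, and pDC had 18.97 and 13.45 CPM in CKO and 21.21 and 12.75 CPM in WT. The Esamlo groups were separated by less than 1 CPM and the pDC groups overlapped. In Esamlo the direction was that of Dec205, without a call (log2 fold change 1.13, SE 0.49, adjusted p = 0.582, edgeR's quasi-likelihood test). Whether the CKO effect on Blk differed between subsets was tested jointly, and the adjusted p was 0.145 (0.0074 before adjustment over all genes) by edgeR's quasi-likelihood test. The joint test called none of the 7 genes, against 2.44% of all tested genes, with 1 gene at an unadjusted p under 0.05 (13.3% of all) and 1 gene, Blk, called by DESeq2 (adjusted p = 0.00943; 8.26% of all). Between pairs of subsets, 0 of 42 differences in the CKO effect on the 7 genes were called by edgeR's quasi-likelihood test and 3 had an unadjusted p under 0.05, as did 10.5% of such differences over all tested genes. Of all tested genes, 2.41% differed between Dec205 and pDC, 1.53% between Dec205 and Esamlo, 1.91% between Dec205 and Esamhi, 0.682% between pDC and Esamlo, 1.18% between pDC and Esamhi and 0% between Esamlo and Esamhi.

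**Figure D1:**
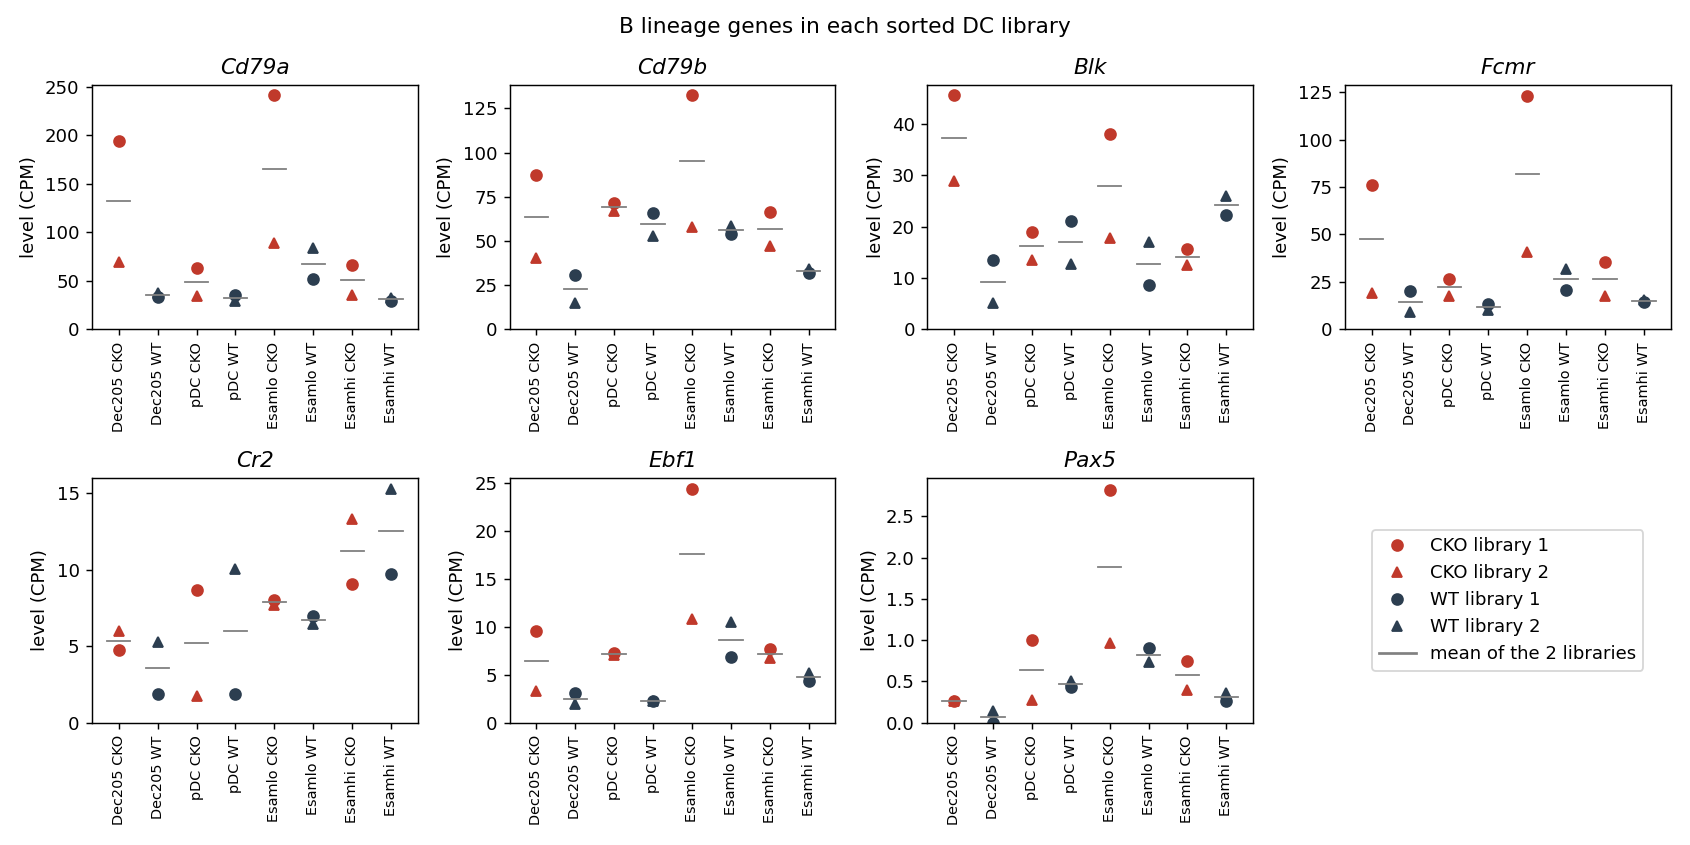
Level of each of the 7 genes in every library, in CPM on linear axes that start at 0, by subset, with CKO left of WT in each pair; circles are library 1, triangles library 2 and grey bars the mean of both. CKO replicate 1 of Dec205 and of Esamlo gave the 2 highest Cd79a values, 194.1 and 241.4 CPM, and Blk was lower in CKO than in WT in Esamhi.

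Fcmr, the IgM receptor, differed widely between the CKO libraries of a group. It had 76.13 and 18.87 CPM in Dec205 CKO, against 20.04 and 9.13 CPM in Dec205 WT. It had 123.2 and 40.72 CPM in Esamlo CKO, against 20.80 and 31.80 CPM in Esamlo WT. In Dec205 the lower CKO library was inside the WT range, and in Esamlo both CKO libraries were above WT. In pDC it had 26.74 and 17.52 CPM in CKO and 13.51 and 9.959 CPM in WT, and in Esamhi 35.27 and 17.35 CPM in CKO and 14.44 and 15.31 CPM in WT, in both subsets without overlap. Its log2 fold changes ran from 0.82 in Esamhi to 1.71 in Dec205, and no subset passed the test.

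Cr2, the complement receptor gene, did not follow the others. Dec205 had 4.717 and 5.965 CPM in CKO and 1.897 and 5.275 CPM in WT. Esamlo had 8.033 and 7.680 CPM in CKO and 6.989 and 6.439 CPM in WT, and Esamhi had 9.088 and 13.30 CPM in CKO and 9.695 and 15.31 CPM in WT. Only in Esamlo did both CKO libraries lie above both WT libraries, and there by little. In pDC a single library of each genotype was high, with 8.667 and 1.714 CPM in CKO and 1.870 and 10.06 CPM in WT. Averaged over the subsets its log2 fold change was 0.11 (SE 0.38, adjusted p = 0.989, edgeR's quasi-likelihood test), with a standard error larger than the change.

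Of the transcription factors, Ebf1 was the steadier. In pDC it had 7.240 and 7.018 CPM in CKO, against 2.244 and 2.286 CPM in WT. The libraries of each genotype were close here and the genotypes were apart, at 7.13 ± 0.157 CPM in CKO and 2.27 ± 0.0303 CPM in WT (SD, n = 2 each). With the spread estimated over all 16 libraries, the log2 fold change of 1.65 (SE 0.52) had an unadjusted p of 0.00774 and an adjusted p of 0.197 by edgeR's quasi-likelihood test, and was not called. Ebf1 had 9.536 and 3.307 CPM in Dec205 CKO against 3.036 and 1.894 CPM in Dec205 WT, and 24.39 and 10.79 CPM in Esamlo CKO against 6.818 and 10.49 CPM in Esamlo WT. In Esamhi it had 7.664 and 6.704 CPM in CKO and 4.368 and 5.188 CPM in WT. In every subset both CKO libraries lay above both WT libraries, although in Dec205 and Esamlo the lower CKO library was close to the higher WT library.

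Pax5 was near the limit of detection. Its counts were 5 and 4 in Dec205 CKO and 0 and 2 in Dec205 WT, and 59 and 17 in Esamlo CKO and 16 and 11 in Esamlo WT. In CPM, Esamlo CKO had 2.821 and 0.960 and Esamlo WT had 0.9091 and 0.7302. The highest library was thus Esamlo CKO replicate 1, the same that was highest for Cd79a. No comparison of CKO with WT called Pax5, and with standard errors of 1.04 to 1.30 on the log2 scale in single subsets, changes of 2-fold were not detectable at this depth.

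Averaged over the 4 subsets, 4 of the 7 genes were higher in CKO, against 3.92% of all tested genes. The test treated libraries of different subsets as independent, and the labels do not say whether subsets share mice. If they do, the p-values of these averages could be too small. Ebf1 rose 2.24-fold (log2 fold change 1.16, SE 0.26, adjusted p = 0.0178, edgeR's quasi-likelihood test, as for the next 3). Cd79a rose 2.19-fold (1.13, SE 0.26, adjusted p = 0.0237). Fcmr rose 2.42-fold (1.27, SE 0.32, adjusted p = 0.0353), and Cd79b rose 1.76-fold (0.81, SE 0.21, adjusted p = 0.0379). The chains of the B cell receptor complex, the IgM receptor and a lineage factor thus had higher averages, while Blk (0.57, SE 0.24, adjusted p = 0.226), Pax5 (1.06, SE 0.56, adjusted p = 0.353) and Cr2 did not pass. The call of Ebf1 ended without Esamlo CKO replicate 1 or Esamhi WT replicate 1, and held in the other 14 fits that left out 1 library (adjusted p at most 0.0615 in all 16). That of Cd79a ended in 7 of the 16 fits, without pDC WT replicate 2, pDC CKO replicate 1, Esamlo WT replicate 1, Esamlo CKO replicate 1, Esamhi CKO replicate 1 or either Esamhi WT library (adjusted p at most 0.0685). That of Fcmr held in 5 fits, without Dec205 WT replicate 1 or without CKO replicate 2 of any subset, and ended in the other 11 (adjusted p at most 0.102). That of Cd79b held in 3 fits, without Dec205 WT replicate 1, Dec205 CKO replicate 2 or Esamlo CKO replicate 2, and ended in the other 13 (adjusted p at most 0.101).

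Within single subsets, calls were fewer. No gene of the 7 was called in pDC, where 1.85% of all tested genes were, in Esamlo (0.551%) or in Esamhi (0.877%), by edgeR's quasi-likelihood test. At an unadjusted p under 0.05 there were 1 in pDC (Ebf1), 3 in Esamlo (Cd79a, Fcmr and Blk) and 0 in Esamhi, against 10.7%, 7.9% and 7.48% of all tested genes. DESeq2 also called 0 of the 7 in each of them, against 4.12% of all genes to which it gave an adjusted p in pDC, 2.13% in Esamlo and 2.83% in Esamhi. In Dec205, 5 of the 7 had an unadjusted p under 0.05, as did 22.7% of all tested genes. There DESeq2 called 4 (Cd79a, Cd79b, Fcmr and Blk), against 12.9% of all genes, so it made more calls than edgeR in general. Both CKO libraries lay above both WT libraries for 5 of the 7 genes in Dec205, for 3 in pDC, for 6 in Esamlo and for 5 in Esamhi, whereas 20.1%, 20.6%, 23.1% and 22.4% of all tested genes did so in these subsets. Only Blk in Esamhi lay below, as did 21.8% of all genes there. The 7 genes had a median log2 fold change of 1.71 for Dec205, 0.44 for pDC, 1.13 for Esamlo and 0.72 for Esamhi, with that of all tested genes between 0.00 and 0.01. All comparisons here used the same 16 libraries, so the average holds the same values as the single subsets.

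**Figure D2:**
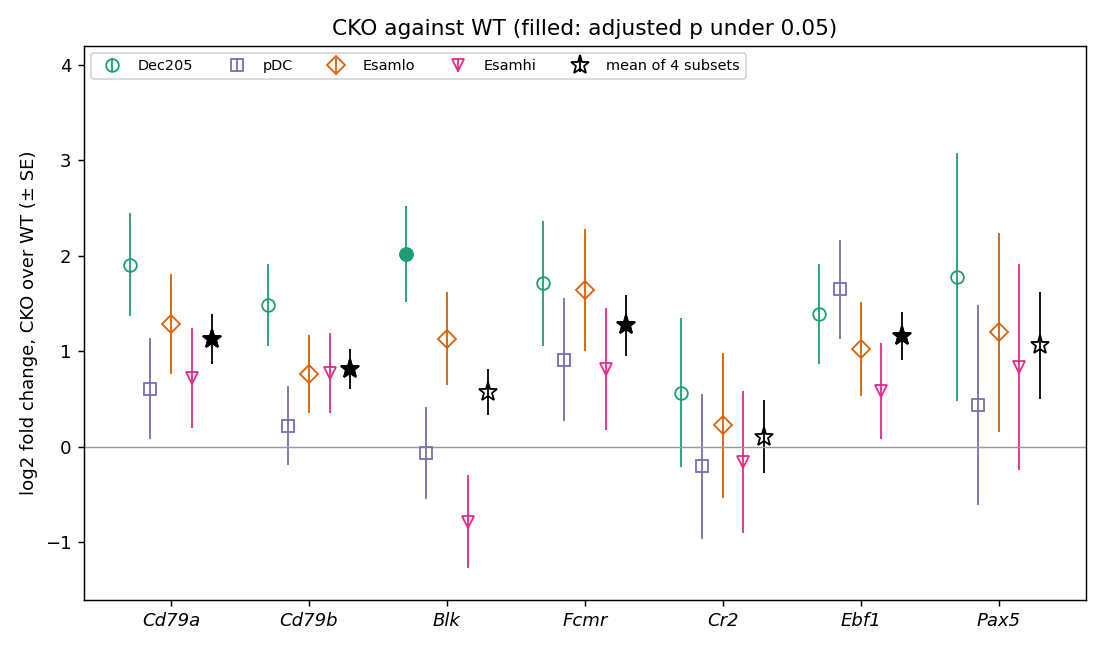
Log2 fold change of CKO over WT for each gene, with its standard error, in the 4 subsets and averaged over them; filled symbols passed an adjusted p of 0.05. The filled ones are Blk in Dec205 (2.02) and the averages of Cd79a, Cd79b, Fcmr and Ebf1, and most single-subset values are above 0 with wide error bars.

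The libraries of a group often differed for these genes, and in CKO replicate 1 was mostly the higher. The CPM of CKO replicate 1 over CKO replicate 2 for Cd79a was 2.78 for Dec205, 1.87 for pDC, 2.73 for Esamlo and 1.89 for Esamhi. In WT the same ratio was 0.895 for Dec205, 1.22 for pDC, 0.613 for Esamlo and 0.883 for Esamhi. Replicate 1 was thus the higher in 4 of 4 CKO groups and in 1 of 4 WT groups. The same held in 4 of 4 CKO groups for Cd79b (ratios 1.07 to 2.28), Blk (1.26 to 2.15), Fcmr (1.53 to 4.03) and Ebf1 (1.03 to 2.88). In WT, replicate 1 was the higher in 2 of 4 groups for Cd79b, Blk and Fcmr and in 1 of 4 for Ebf1. The Dec205 WT ratios of 2.08 for Cd79b, 2.65 for Blk and 2.19 for Fcmr lay within or above the range of the CKO ratios of these genes. Replicate 1 was the higher in 3 of 4 CKO groups for Pax5 and in 2 of 4 for Cr2. Ms4a1, a B cell gene outside the 7 that encodes CD20, had ratios of 0.958 to 2.03 in the CKO groups, above 1 in 2 of 4. Over all tested genes the median absolute difference between the libraries of a group was 0.176 to 0.305 on the log2 scale in CKO groups and 0.181 to 0.299 in WT groups, so the CKO libraries did not differ more from each other in general. Over all genes the differences between replicates 1 and 2 were only weakly shared, with correlations across genes of 0.026 to 0.109 between CKO groups, and the labels do not say that libraries with the same number share an animal.

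**Figure D3:**
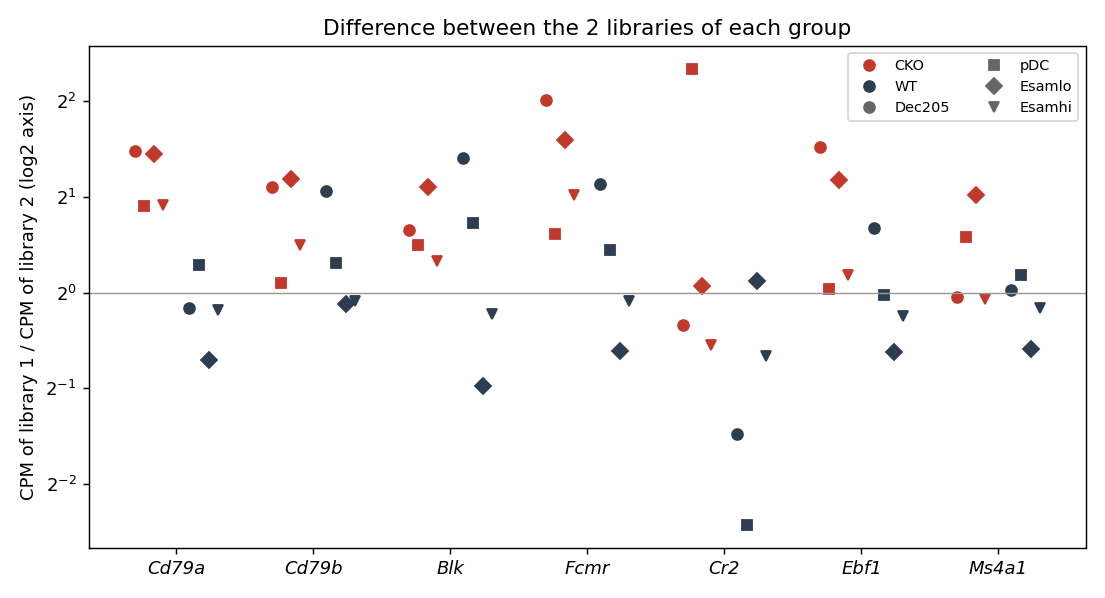
CPM of replicate 1 divided by that of replicate 2 in each group, on a log2 axis, for 6 of the 7 genes and for Ms4a1; Pax5 is left out since a Dec205 WT library had 0 counts. The CKO points of Cd79a, Cd79b, Blk, Fcmr and Ebf1 are all above 1, and the WT points lie on both sides.

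Results without these libraries were computed after their values were seen. With CKO replicate 1 of Dec205 and of Esamlo left out together, none of the 7 averages passed (Cd79a 0.68, adjusted p = 0.0793; Ebf1 0.75, adjusted p = 0.0854; Cd79b 0.47, adjusted p = 0.137; Fcmr 0.69, adjusted p = 0.149, by edgeR's quasi-likelihood test). With CKO replicate 1 of all 4 subsets left out, the average log2 fold change was 0.72 for Ebf1 (adjusted p = 0.294), 0.45 for Fcmr (adjusted p = 0.495), 0.42 for Cd79a (adjusted p = 0.234) and 0.39 for Cd79b (adjusted p = 0.408). All of these averages were still above 0. They were lower than with all libraries, but that followed from the choice of libraries. For each of these genes, CKO replicate 1 was the higher CKO library in all 4 subsets. These fits also had fewer libraries.

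In another fit the covariate was the mean log2 CPM of 5 B cell genes outside the 7, among them Ms4a1, Fcer2a, Fcrla and Vpreb3. It asked how the averages stood at an equal mean of these genes. The average log2 fold change of CKO over WT became 0.13 for Cd79a (adjusted p = 0.954), 0.06 for Cd79b, 0.28 for Ebf1 and −0.03 for Fcmr, and none of the 7 averages passed edgeR's quasi-likelihood test. The log2 fold change of Blk in Dec205 was 1.37 with the covariate (adjusted p = 0.0719), against 2.02 without it, and was no longer called. Of these 5 covariate genes, 2, among them Ms4a1, were themselves called higher in CKO on average, so the covariate also differed between genotypes. The 5 genes did not move together, since 3 of them had a log2 fold change above 0 in Dec205. Fcrla also differed between subsets, with 199.4 to 226.3 CPM in pDC WT and 33.34 to 37.04 CPM in Dec205 WT. Whether the covariate follows the share of B cells in a sort was not tested.

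Between subsets in WT, levels were compared per gene. Ebf1 was lower in Dec205 than in the mean of Esamlo and Esamhi, at 2.46 ± 0.808 CPM in Dec205, against 8.65 ± 2.60 CPM in Esamlo and 4.78 ± 0.580 CPM in Esamhi (SD, n = 2 each), a 2.61-fold difference (log2 fold change −1.38, SE 0.48, adjusted p = 0.0342, edgeR's quasi-likelihood test). It was the only 1 of the 7 called there, while 20.8% of all tested genes were lower in Dec205. Its call ended in 4 of 6 fits that left out 1 library, without Dec205 WT replicate 2, Esamlo WT replicate 2, or either Esamhi WT library (adjusted p at most 0.198). None of the 7 was called between pDC and the mean of the other subsets, although 52% of all tested genes were. There, 2 genes had an unadjusted p under 0.05 (57.5% of all) and DESeq2 called 2 (54.2% of all), Cd79b (higher in pDC) and Ebf1 (lower). None was called between Esamhi and Esamlo, where 5.81% of all genes were, 0 had an unadjusted p under 0.05 (18.6% of all), and DESeq2 called 0 (11.3% of all).

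Per kilobase of annotated exon, the order of mean levels in Esamlo CKO was Cd79a (113 CPM per kb), Cd79b (66.5), Fcmr (47.2), Blk (10.3), Ebf1 (1.81), Cr2 (0.968) and Pax5 (0.213). In Esamlo WT the order was the same, with 46.5 CPM per kb for Cd79a, 39.2 for Cd79b, 15.2 for Fcmr, 4.73 for Blk, 0.889 for Ebf1, 0.828 for Cr2 and 0.0927 for Pax5. Neighbours Cd79a and Cd79b, and Ebf1 and Cr2, did not differ beyond their spread in WT. Cd79a, Cd79b, Fcmr and Blk were thus above both lineage factors in Esamlo of both genotypes, while Cr2 was not above Ebf1. In Dec205, Cd79a had 90.5 ± 60.2 CPM per kb in CKO and 24.1 ± 1.91 CPM per kb in WT (SD, n = 2 each). In pDC the order differed, with Cd79b at 48.5 CPM per kb in CKO and 41.5 CPM per kb in WT, above Cd79a at 33.2 and 21.8 CPM per kb.

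Other B cell genes, taken from lists that leave out the 7, moved in part. Of 22 tested genes for B cell surface proteins, 5 rose and 0 fell in Dec205, where 3.44% of all tested genes rose and 3.34% fell. Among them were Slamf6 (log2 fold change 1.73), Cd22 (1.57), an inhibitory coreceptor, and Ms4a1 (1.48). In pDC 2 rose, Fcrl1 (1.65) and Cd24a (1.29), where 1.47% of all genes rose, and in Esamlo and Esamhi 0 were called. On average 6 rose, against 3.92% of all genes, including Ms4a1 (0.79), Cxcr5 (0.72) and Slamf6 (0.70). The median log2 fold change of this list was 0.41 for Dec205, 0.30 for pDC, 0.33 for Esamlo and 0.17 for Esamhi, each below that of the 7. Both the 7 and this list were chosen with earlier results of these data known, so their order is a description only. Of 20 genes of B cell receptor signalling, 2 rose in Dec205, among them Cd22, which both lists hold, and 2 on average, among them Ralgps2, and 0 fell, with medians of 0.06 in Dec205 and 0.07 on average.

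Transcription factors of the B lineage went both ways. Of 18, 1 rose in Dec205 (Spib, 0.91), a share near that of all genes that rose there (3.44%), and 3 fell (Sox4, −1.87, Runx1, −0.76, and Foxo1, −0.61), against 3.34% of all genes. Sox4 rose in pDC (0.93), where 1.47% of all genes rose, and fell in Esamlo (−1.03), where 0.0943% of all genes fell. Irf8, also a factor of cDC1 and pDC, rose in Esamhi (0.81), as did 0.674% of all genes. On average 2 rose (Irf8 and Bach2) and 2 fell (Sox4 and Runx1), against 3.92% and 1.89% of all genes. Of 7 plasma cell genes, Mzb1 (2.21) and Sdc1 (3.39) rose in Dec205, and Mzb1 had 114.7 and 32.35 CPM in Dec205 CKO, against 18.52 and 13.39 CPM in Dec205 WT. On average 1 plasma cell gene rose (Mzb1) and 0 fell. Mzb1, a chaperone of immunoglobulin assembly, is also a pDC gene, and had 93.75 to 131.5 CPM in pDC CKO and 97.17 to 98.06 CPM in pDC WT.

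Lists for B cell stages had few calls. Of all tested genes, 3.44% rose and 3.34% fell in Dec205, 1.47% rose in pDC, and 3.92% rose and 1.89% fell on average. In either direction, 0.551% were called in Esamlo and 0.877% in Esamhi. Of 6 tested precursor genes out of 10, Ly6d, which is also a pDC marker, rose in Dec205 and on average and 0 fell. Of 6 follicular genes, 0 were called in Dec205, Esamlo and Esamhi and 1 rose in pDC (Il4i1), while 2 rose on average (Cxcr5 and Il4i1). Of 7 tested marginal zone genes, Mzb1 and S1pr3 rose in Dec205 and Asb2 fell in pDC (0.377% of all genes fell there), each with the same call on average. S1pr3, a sphingosine-1-phosphate receptor, had 10.77 and 6.225 CPM in Dec205 CKO and 0 counts in both Dec205 WT libraries.

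Markers of other cells were read beside these results. A list of 10 B cell markers outside the 7 was above 0 for all 10 in each library, and its summed level was 458 to 871 CPM in Dec205 CKO and 228 to 263 CPM in Dec205 WT, 492 to 1150 CPM in Esamlo CKO and 329 to 453 CPM in Esamlo WT, and 364 to 441 CPM in pDC CKO and 339 to 355 CPM in pDC WT. A large part of the pDC sum was Fcrla, with 211.1 to 213.6 CPM in pDC CKO and 199.4 to 226.3 CPM in pDC WT. In Esamhi the sum was lower in CKO, with 346 to 438 CPM in CKO and 441 to 460 CPM in WT. Cd22 alone had 136.2 to 180.0 CPM there in CKO and 276.3 to 291.0 CPM in WT, whereas 8 of the 10 markers had a log2 fold change above 0, with a median of 0.41, against 0.00 for all tested genes. Of these markers 3 rose in Dec205 and 0 fell (3.44% and 3.34% of all genes), and 0 were called in pDC, Esamlo and Esamhi. In Dec205, 8 of the 10 had a log2 fold change above 0, while the means of Fcrla and Vpreb3 were lower in CKO. The part that B cells in the sorts had in the results of the 7 genes was not tested. The pDC markers summed to 419 to 481 CPM in Dec205 CKO and 218 to 227 CPM in Dec205 WT, with 5 of 10 higher, against 3.44% of all genes. They also summed to 268 to 305 CPM in Esamlo CKO and 212 to 241 CPM in Esamlo WT, and to 202 to 211 CPM in Esamhi CKO and 165 to 171 CPM in Esamhi WT, without overlap, with 1 of 10 (Cox6a2) higher in each, where 0.457% of all genes in Esamlo and 0.674% in Esamhi were higher. The part of pDC was not tested either. T cell markers summed to 87.7 to 103 CPM in Dec205 CKO and 86.8 to 110 CPM in Dec205 WT, and to 73.3 to 86.0 CPM in Esamlo CKO and 72.0 to 95.6 CPM in Esamlo WT, so these ranges overlapped. They were higher in CKO without overlap in the other subsets, at 53.4 to 53.5 CPM in pDC CKO and 36.3 to 41.8 CPM in pDC WT, and at 238 to 252 CPM in Esamhi CKO and 210 to 223 CPM in Esamhi WT. Of 10 T cell markers, 1 rose in Dec205 (Cd5, log2 fold change 1.42) and 1 fell (Bcl11b, −4.61), against 3.44% and 3.34% of all genes. Neutrophil markers summed to 42.9 to 46.8 CPM in Esamhi CKO and 7.94 to 9.18 CPM in Esamhi WT, and to 49.0 to 49.5 CPM in Esamlo CKO and 16.8 to 24.0 CPM in Esamlo WT. They had 13.6 to 13.7 CPM in pDC CKO and 4.97 to 13.4 CPM in pDC WT, and 3.63 to 5.02 CPM in Dec205 CKO and 3.34 to 6.70 CPM in Dec205 WT. The part of T cells and neutrophils was not tested. NK cell markers summed to 6.54 to 8.95 CPM in Esamhi CKO and 5.45 to 6.98 CPM in Esamhi WT, and their ranges overlapped between genotypes in each subset. Of 6 NK markers, 1 rose in Dec205 (Klrb1c), with 12 and 5 counts in CKO. Follicular dendritic cell markers summed to 64.8 to 85.5 CPM in Dec205 CKO and 115 to 141 CPM in Dec205 WT, although 1 of 4 (Enpp2) rose there. In Esamhi they had 37.4 to 55.8 CPM in CKO and 29.2 to 32.4 CPM in WT. The part of these cells was not tested.

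The genes most like the 7 were found by the Pearson correlation of log2 CPM with the mean standardised level of the 7 over the 12 libraries of Dec205, Esamlo and Esamhi, which share sorts and mice to an unknown extent. Among the 10 highest were Ablim1 (r = 0.954), Slc28a2 (0.945), Bank1 (0.929), Cd72 (0.926), Fam3c (0.915), Scd1 (0.907), Tlr4 (0.907), Arhgap24 (0.906) and Myc (0.902). Bank1 encodes a scaffold and Cd72 an inhibitory receptor of B cells. On deviations from the group means over all 16 libraries, which leave out subset and genotype, the 10 highest included Mzb1 (0.956), Gm14085 (0.934), Dhdds (0.932) and Hsp90b1 (0.927), followed by Gimap3, Ephx1, 2810468N07Rik, Akr1e1 and Dennd5b (0.915 to 0.901). Each correlation is the highest among 13790 tested genes over few libraries and is given as a description.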

How the data were processed

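RNA of sorted spleen DC was measured in 16 libraries. Per the labels' protocols it was purified with the PicoPure kit and amplified with SMART-seq v4, by PCR without molecular identifiers. The smallest level taken as detected therefore rests on counts of reads, not of molecules. Standard errors and SDs include the spread between libraries as well as counting error. The authors deposited whole-number counts, not normalized. Per the submitters' processing notes the tools were bcl2fastq, Trimmomatic 0.36 and Bowtie2 2.2.9 and the build mm10. How and on which annotation reads were counted is not stated there.

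Genes were filtered with filterByExpr on the 8 groups and scaled by TMM. All 16 libraries entered 1 robust fit in edgeR 4.0.16 under R 4.3.3 (quasi-likelihood test, two-sided) with 1 coefficient per group and 8 residual degrees of freedom, adjusted by Benjamini-Hochberg over the 13790 tested genes and called under 0.05. The standard error came from the F statistic. The prior count of log2 CPM was 2. The fit was tested on simulated data. Alternatives were DESeq2 1.42.0, other scalings, no filter, a replicate block, a B cell covariate, only the groups compared, and leaving out libraries.

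The 7 genes were given by name. They and the other lists were chosen with earlier results of these data known. Genes of other lists are named where called in a comparison of CKO with WT, at most 4 per list by size of change, and the genes most like the 7 are the 10 with the highest correlation. Positions and promoters are RefSeq's on GRCm38.p6, the assembly of mm10, and exon lengths are GENCODE's. Of the list genes, 2 had no row in the table. Values of 1 gene of these lists are not reported here.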

Additional observations from a re-analysis of the deposited data

Results flagged for a closer look

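The CKO effect on Blk went opposite ways in different subsets, with every CKO library above both WT libraries in Dec205 and Esamlo and below both in Esamhi. The log2 fold change in Dec205 minus that in Esamhi was 2.80 (SE 0.70, unadjusted p = 0.00163, adjusted p = 0.0685, edgeR's quasi-likelihood test). The log2 fold change in Esamlo minus that in Esamhi was 1.92 (SE 0.69, unadjusted p = 0.0161, adjusted p = 1 by the same test). Neither difference passed after adjustment over all genes. The differences given here were flagged because of the opposite order of these same libraries. Of 42 such differences between pairs of subsets over the 7 genes, 3 had an unadjusted p under 0.05, and all 3 were of Blk. Over all tested genes, 10.5% of such differences had an unadjusted p under 0.05 by the same test.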

How the results depend on the processing

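Counts of the 7 genes called depended on the fit. In Dec205, 1 became 0 with no filter on low counts, with the B cell covariate, with only the groups compared and without CKO replicate 1 of Dec205 and Esamlo, 3 with the replicate block and 4 with DESeq2, and 0 to 5 when 1 library was left out. On average, 4 became 1 with no filter and 0 with the B cell covariate or without CKO replicate 1 of Dec205 and Esamlo or of all 4 subsets, and 0 to 4 when 1 library was left out. In Esamhi, 0 became 2 with only the groups compared (Cd79b, 0.77, adjusted p = 0.0159; Blk, −0.79, adjusted p = 0.0262). For the joint test, 0 became 1 with the B cell covariate and with DESeq2, and 0 to 1 when 1 library was left out. Between pDC and the other WT subsets, 0 became 3 with the covariate, 2 with DESeq2, 1 with library size only, with the replicate block or with only the groups compared, and 0 to 1 when 1 library was left out. Between Dec205 and the ESAM subsets in WT, 1 became 5 with the covariate, 2 with the replicate block, DESeq2 or only the groups compared, and 0 to 3 when 1 library was left out. Between Esamhi and Esamlo in WT, 0 became 1 with the covariate and 2 with only the groups compared. The counts in pDC and Esamlo stayed at 0 in every fit. For all of these changes the cause was not tested, except that fits of the groups compared have fewer libraries.

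Log2 fold changes that changed sign were small or uncertain. With the B cell covariate they were −0.08 (Cd79a) and −0.28 (Cd79b) in pDC; −0.21 (Cd79a), −0.44 (Cd79b), −0.31 (Ebf1), −0.34 (Fcmr) and −0.03 (Blk) in Esamlo; −0.03 (Cd79a), −0.10 (Ebf1), 0.00 (Cr2) and −0.16 (Fcmr) in Esamhi; −0.03 (Fcmr) and −0.17 (Blk) on average; 0.02 (Cr2) and −0.46 (Blk) between pDC and the others in WT; and 0.21 (Fcmr) between Esamhi and Esamlo in WT. Of these, Fcmr on average had been called. Cr2 turned to 0.04 in pDC with the replicate block and to −0.20 on average without CKO replicate 1 of all subsets. Leaving out 1 library, the ranges that crossed 0 were −0.79 to 1.09 for Pax5, −1.80 to 1.46 for Cr2 and −0.40 to 0.35 for Blk in pDC, −0.46 to 0.21 for Cr2 in Esamhi, −0.29 to 0.53 for Cr2 on average, −1.84 to 0.57 for Cr2 and −0.17 to 0.58 for Blk between pDC and the others in WT, and −1.13 to 0.02 for Fcmr between Dec205 and the ESAM subsets in WT.

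The correlation of the differences between replicates 1 and 2 was −0.069 to 0.116 over 28 pairs of groups. It was 0.026 to 0.109 between CKO groups and 0.007 to 0.116 between WT groups. Between CKO and WT of the same subset it was −0.069 to 0.017. Such weak correlations over all genes cannot show whether libraries with the same number share an animal. With 2 libraries per group, and counts of Pax5 at most 59, the fits resolve large changes only. When 1 of 2 libraries is left out, the lone library is assumed to vary like the other groups. With a prior count of 0.5, 8 of the 10 genes most like the 7 were shared in each list.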
